A study of Mus musculus with 12 samples.

Results

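The 45 genes described here code for the machinery that copies DNA and for regulators of the G1/S transition, the step at which a cell commits to copying it. They were taken by name, with no measured value in the rule, as rows of the deposited expression table. All 45 were found among its 24421 gene symbols, and all 45 were among the 10899 genes with at least 1 CPM (a read count scaled to the gene reads of its library) in at least 2 libraries, which were tested. By role they are 6 MCM helicase subunits, 5 genes of helicase activation, 5 of origin recognition and licensing, 8 of the sliding clamp, its loader and strand joining, 7 of the polymerases and primase, 2 of single-strand binding, 4 of deoxynucleotide synthesis, 4 G1/S regulators and 4 of chromatin and histone supply.

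Before S phase, the origin recognition complex, Cdc6 and Cdt1 load rings of MCM proteins onto DNA, and Cdc45 with the GINS complex turns a loaded ring into an active helicase. Primase with polymerase alpha then starts each strand, the clamp loader RFC places the clamp PCNA, and polymerases delta and epsilon extend the strands. E2F factors, which proteins of the retinoblastoma family hold in check until G1 cyclins and their kinases become active, switch on many of these genes late in G1. Bacterial lipopolysaccharide is known to halt proliferating macrophages in G1.

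The libraries were RNA sequencing of RAW 264.7, an immortal mouse macrophage line of BALB/c origin that divides in culture and was obtained from a cell bank. The 6 groups of 2 libraries were Parp14 knockout (KO) cells with lipopolysaccharide (LPS, sensed by the receptor TLR4), untreated KO cells, wild-type (WT) cells with LPS and an inhibitor of Jak kinases together, WT with LPS, WT with the inhibitor, and untreated WT. Parp14 codes for an ADP-ribosyltransferase; Jak kinases carry signals from interferon and cytokine receptors. All treatments lasted 2 h, and KO cells with the inhibitor are not analysed here. No source used here names the inhibitor or its dose, how Parp14 was disrupted, or how many KO clones were grown, so the KO groups may stand for 1 clone.

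Each library held 35.9 M to 45.7 M reads in genes. Parp14, the targeted gene, measured 34.95 and 40.54 CPM in KO with LPS, against 315 and 419 CPM in WT with LPS, and 10.0 and 11.97 CPM in untreated KO, against 76.4 and 99.7 CPM in untreated WT. Of 10 macrophage marker genes, 9 were at 1 CPM or more in every library, while Mertk did not pass 0.206 CPM. All 10 markers of T, B, epithelial, fibroblast and endothelial cells stayed under 1 CPM, and their sum was 0.0773 to 0.601 CPM. The labels name no separate cultures for the replicates, so every p-value rests on the spread between libraries alone, which may be technical.

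The sequences below are promoters of members on which the results turn, from 250 bases before to 50 after the start that RefSeq lists (GRCm38.p6). E2f2, Gins3 and Cdc6 had the largest LPS changes in WT, Mcm6 stands for the helicase subunits, and Cdc45 changed least. The windows are chr4:136172024-136172323 on the plus strand for E2f2, chr8:95633309-95633608 on the plus strand for Gins3, chr11:98907901-98908200 on the plus strand for Cdc6, chr1:128359656-128359955 on the minus strand for Mcm6 and chr16:18811923-18812222 on the minus strand for Cdc45. Each is written 5′ to 3′ along the gene. Capitals mark E2F words (TTTCCCGC, TTTGGCGC, TTTCGCGC or TTTGCCGC) and the CCAAT word, which the factor NF-Y binds, on either strand; on the other strand they read GCGGGAAA, GCGCCAAA, GCGCGAAA, GCGGCAAA and ATTGG.
E2f2: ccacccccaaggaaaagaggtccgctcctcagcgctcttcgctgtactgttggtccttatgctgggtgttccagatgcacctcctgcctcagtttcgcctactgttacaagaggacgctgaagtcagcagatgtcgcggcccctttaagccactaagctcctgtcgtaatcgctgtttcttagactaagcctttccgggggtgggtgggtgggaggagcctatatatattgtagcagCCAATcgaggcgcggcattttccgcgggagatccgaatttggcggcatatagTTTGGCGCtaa
Gins3: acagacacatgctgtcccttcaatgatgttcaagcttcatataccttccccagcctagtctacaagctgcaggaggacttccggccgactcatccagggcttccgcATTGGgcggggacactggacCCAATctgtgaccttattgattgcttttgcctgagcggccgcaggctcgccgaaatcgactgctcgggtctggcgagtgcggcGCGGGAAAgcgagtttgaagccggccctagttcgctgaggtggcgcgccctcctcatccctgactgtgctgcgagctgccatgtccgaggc
Cdc6: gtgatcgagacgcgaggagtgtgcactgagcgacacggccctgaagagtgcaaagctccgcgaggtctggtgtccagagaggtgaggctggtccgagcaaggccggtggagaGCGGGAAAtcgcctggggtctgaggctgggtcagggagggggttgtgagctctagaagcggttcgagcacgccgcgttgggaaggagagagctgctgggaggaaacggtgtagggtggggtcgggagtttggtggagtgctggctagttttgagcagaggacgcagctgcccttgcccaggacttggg
Mcm6: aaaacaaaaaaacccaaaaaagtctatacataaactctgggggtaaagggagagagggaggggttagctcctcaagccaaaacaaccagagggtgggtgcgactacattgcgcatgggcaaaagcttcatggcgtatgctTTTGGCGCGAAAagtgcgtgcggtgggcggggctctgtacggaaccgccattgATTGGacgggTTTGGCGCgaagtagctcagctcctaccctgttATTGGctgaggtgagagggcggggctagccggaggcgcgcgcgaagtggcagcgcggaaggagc
Cdc45: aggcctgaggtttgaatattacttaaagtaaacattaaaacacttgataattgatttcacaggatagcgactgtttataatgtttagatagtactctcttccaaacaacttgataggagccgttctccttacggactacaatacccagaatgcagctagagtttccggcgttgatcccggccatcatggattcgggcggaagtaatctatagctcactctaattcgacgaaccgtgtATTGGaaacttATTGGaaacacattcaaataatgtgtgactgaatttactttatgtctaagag

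E2f2 has 2 listed starts, of which the one with an E2F word is shown. For Lig1, Mcm7 and Uhrf1, too, only some of the listed starts have an E2F word in their window. The Cdc6 window lies inside the annotated gene, which begins at 98907801. The first of the 3 E2F words of Mcm6 overlaps the second, and the Cdc45 window holds no E2F word. Of the 45 genes, 38 had a promoter in the RefSeq table; Gins1, Mcm4, Ccne2, Pole, Gins2, Prim2 and Rfc2 did not. At least 1 of the 4 E2F words stood in the window of 15 of the 38 genes (39.5%), namely Cdc6, Cdt1, E2f2, Gins3, Lig1, Mcm3, Mcm5, Mcm6, Mcm7, Orc1, Pola1, Pold1, Pole2, Rfc3 and Uhrf1. The same words stood in the windows of 4.99% of the 8401 tested genes with a promoter and in 2.26% of all 32851 promoters of this length. CCAAT was found for 63.2% of the 38 members, against 43.7% of tested genes and 37.4% of all promoters. The GC box word GGGCGG was found for 76.3% of members, against 69.5% of tested genes and 35.7% of promoters. The word TTTGAA, the core of the element of many genes of later cell cycle stages, was found for 13.2% of members, against 14.2% of tested genes and 17.9% of promoters. These are matches of letters in a window, not binding sites.

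The first question was what 2 h of LPS did to these genes in WT cells. Of the 45 genes, 44 fell and 0 rose (limma on log2(CPM + 1), Benjamini-Hochberg adjusted p under 0.05 over all tested genes), while 53.6% of all tested genes fell and 13.7% rose. The G1/S regulator E2f2, the helicase factor Gins3, the licensing factor Cdc6 and the salvage kinase Tk1 fell most. The median log2 change of the 45 was -0.76, against -0.30 over all tested genes, and 43 of the 45 lay below that all-gene median. For 44 members both libraries with LPS lay below both untreated ones, as they did for 64.5% of all tested genes. The means of 13 members in WT with LPS were at most 1/2 of those in untreated WT, while 13 other members differed by less than 1.5-fold. On the log2(CPM + 1) scale 12 members were lower by over 2-fold, as were 11.2% of all tested genes. In bulk RNA, fewer cells in S phase and less transcript per cell cannot be told apart.

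The size of the general fall depended on the scaling. Rescaled by the median of ratios over 8473 genes, the median change of all tested genes in WT was -0.04, with 32.5% lower and 26.4% higher. On that scale 31 of the 45 members fell and 0 rose, with a median of -0.47, and 42 lay below the all-gene median. On it 6 members were lower by over 2-fold, and the matching share of all tested genes was not computed. With the replicate number as a block on that scale, 40 members fell and 1, Cdc45, rose, against 40.2% and 35% of all tested genes. Not called after rescaling without the block were 14 members, Mcm3, Mcm4, Cdc45, Gins1, Orc1, Orc2, Orc6, Pcna, Rfc4, Rfc5, Pola1, Prim2, Rrm1 and Tyms. The block with rescaling called 9 of these 14 lower (Mcm3, Mcm4, Gins1, Orc1, Orc2, Rfc4, Rfc5, Pola1 and Rrm1, limma adjusted p of 0.00049 to 0.0487), so that Orc6, Pcna, Prim2 and Tyms were the 4 called in neither direction. Changes below are on the CPM scale, with the rescaled change beside those that matter. The counts by role in WT stand against 53.6% of all tested genes lower on the CPM scale and 32.5% after rescaling. With the block and rescaling the share was 40.2%.

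**Figure D1:**
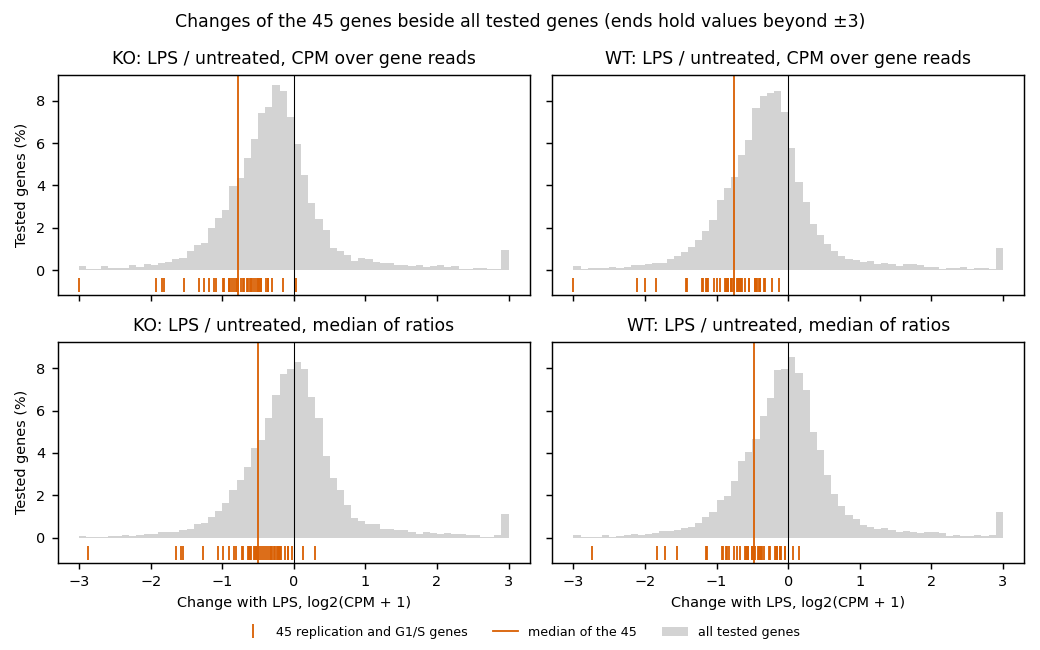
Histograms of the LPS change (log2(CPM + 1) scale) of the 10899 tested genes, as percent of genes per bar, for KO cells (left) and WT cells (right), on CPM over gene reads (top) and after median-of-ratios rescaling (bottom); orange ticks are the 45 genes and the orange line is their median. The median of the 45 lies at -0.78 in KO and -0.76 in WT on the CPM scale, and at -0.50 in KO and -0.47 in WT after rescaling.

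Among the G1/S regulators, E2f2 (chromosome 4, 136172394 to 136196057, plus strand, GRCm38), an activating E2F factor, measured 7.51 and 5.68 CPM in WT with LPS, against 61.2 and 58.4 CPM in untreated WT. Its log2 change was -3.01 (SE 0.113, limma adjusted p = 2.48e-08), or -2.74 after rescaling, and its mean was lower by a factor of 9.07. Ccne1 (cyclin E1; chromosome 7, 38097984 to 38107534, minus strand) was at 17.9 and 18.4 CPM with LPS, against 47.4 and 52.4 CPM untreated, a change of -1.41 (SE 0.0838, limma adjusted p = 4.9e-07). No library with LPS came near an untreated one for either gene. Ccne2 (cyclin E2) fell by 1.03 and E2f1, the other activating E2F in the set, by 0.88 on the log2 scale. All 4 genes of this role fell on both scales, and their median change of -1.22 was the lowest of the 9 roles in WT.

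In origin recognition and licensing the genes moved apart. Cdc6 (chromosome 11, 98907801 to 98923940, plus strand), an ATPase that brings MCM rings to the origin complex, measured 12.1 and 12.3 CPM in WT with LPS, against 48.5 and 55.4 CPM in untreated WT. It fell by 2.00 on the log2 scale (SE 0.133, limma adjusted p = 9.61e-07). Cdt1 (chromosome 8, 122568015 to 122573554, plus strand), which works with it, was at 50.9 and 56.7 CPM with LPS, against 121 and 115 CPM untreated, a fall of 1.12 (SE 0.075, limma adjusted p = 1.04e-06). The 3 subunits of the origin complex among the 45 changed less: Orc1 by -0.61, Orc2 by -0.47 and Orc6 by -0.22. Orc6 (chromosome 8, 85299632 to 85308278, plus strand) stood at 50.2 and 42.6 CPM with LPS, against 52.5 and 55.7 CPM untreated (limma adjusted p = 0.0371), and after rescaling its change was 0.06 with adjusted p = 0.528. Its call on the CPM scale was lost when WT with LPS replicate 2 or either untreated library was left out. After rescaling none of the 3 subunits was called in WT without the block, whereas with it Orc1 (-0.33, limma adjusted p = 0.00457) and Orc2 (-0.18, limma adjusted p = 0.00401) were called lower and Orc6 was not. Subunits outside the 45 differed among themselves. Orc5 was at 25.7 and 22.0 CPM in WT with LPS, against 67.7 and 65.9 CPM in untreated WT. Orc3 was at 93.2 and 86.4 CPM with LPS, against 101.7 and 104.1 CPM untreated, and Orc4 at 48.4 and 41.3 CPM, against 46.5 and 44.6 CPM.

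For helicase activation the contrast was between Gins3 and Cdc45, whose proteins join the same active helicase. Gins3 (chromosome 8, 95633453 to 95645060, plus strand), a subunit of the GINS complex, measured 12.1 and 11.9 CPM in WT with LPS, against 55.9 and 54.5 CPM in untreated WT, a change of -2.11 (SE 0.0998, limma adjusted p = 1.17e-07). Cdc45 (chromosome 16, 18780447 to 18811987, minus strand) measured 48.8 and 51.6 CPM with LPS, against 51.3 and 58.7 CPM untreated. Its libraries overlapped between the groups, and its change was -0.13 (SE 0.108, limma adjusted p = 0.317), with 0.16 and adjusted p = 0.272 after rescaling. With the replicate block it was called lower on the CPM scale (limma adjusted p = 0.029) and higher after rescaling (limma adjusted p = 0.0123), so its direction followed the scaling. The other subunits Gins1 and Gins2 both fell by 0.65 (after rescaling Gins1 had limma adjusted p = 0.0721, or 0.00049 with the block), and Mcm10, a factor that helps the helicase start, by 0.75. The mRNAs of 3 subunits of the GINS complex thus fell by unequal amounts, from 0.65 to 2.11 on the log2 scale. The exons of Gins2 share 70.7% of their bases with other genes, the largest part with Gse1. The value of Gins2 is thus uncertain, as the strand setting of the counting is not given.

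**Figure D2:**
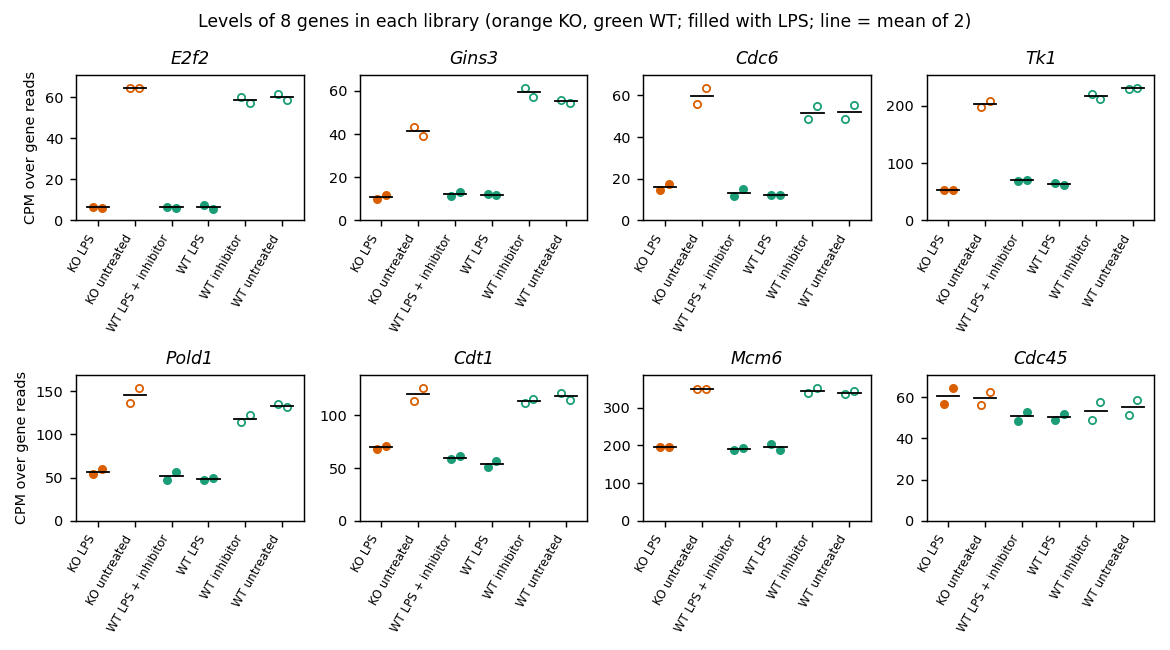
Level in CPM over gene reads of 8 of the genes in each of the 12 libraries; points are libraries, lines the means of 2, orange KO and green WT, filled with LPS and open without it. E2f2, Gins3, Cdc6 and Tk1 are far lower in every group with LPS, Pold1, Cdt1 and Mcm6 less so, and Cdc45 lies between 48.4 and 64.3 CPM in all 12.

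The 6 subunits of the MCM helicase ring all fell, by 0.40 to 0.87 on the log2 scale, and 4 of the 6 were called after rescaling. The block with rescaling also called Mcm3 (limma adjusted p = 0.0465) and Mcm4 (limma adjusted p = 0.00552). Mcm2 measured 165 and 164 CPM in WT with LPS, against 300 and 305 CPM in untreated WT, and fell by 0.87 (SE 0.0806, limma adjusted p = 8.28e-06). Mcm6 was at 202 and 187 CPM with LPS, against 335 and 344 CPM untreated, a fall of 0.80 (SE 0.0567, limma adjusted p = 1.48e-06). At the other end, Mcm3 measured 272 and 310 CPM with LPS, against 365 and 401 CPM untreated (change -0.40, SE 0.143, limma adjusted p = 0.0318). The ring holds 1 copy of each subunit, but read levels per length were not equal. Lengths were those of all annotated exons of a gene merged, not of the transcripts the cells made. The order of the subunits may depend on them. Per kilobase of annotated exon, untreated WT held 141 and 147 CPM of Mcm5 and 120 and 132 CPM of Mcm3, but 61.6 and 63.9 CPM of Mcm4. With LPS, the same levels per kilobase were 86.1 and 91.0 CPM for Mcm5, 89.7 and 102 CPM for Mcm3, and 44.5 and 48.1 CPM for Mcm4. Mcm5 stood above Mcm3 in all 6 libraries without LPS. Mcm3 stood above Mcm5 in both libraries of KO with LPS and of WT with LPS, but in WT with LPS and inhibitor in replicate 2 alone, with 86.4 CPM of Mcm3 and 87.4 CPM of Mcm5 per kilobase in replicate 1.

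All 7 genes of the polymerases and primase fell, and 5 were called after rescaling. Pold1 (chromosome 7, 44532746 to 44548849, minus strand), the catalytic subunit of polymerase delta, measured 47.7 and 49.9 CPM in WT with LPS, against 135 and 132 CPM in untreated WT, a fall of 1.43 (SE 0.0937, limma adjusted p = 8.82e-07). The polymerase epsilon genes Pole, its catalytic subunit, and Pole2 fell by 0.86 and 0.84. The primase and polymerase alpha genes, which start strands, changed less: Pola2 by -0.71, the primase subunits Prim1 by -0.55 and Prim2 by -0.32, and Pola1, the catalytic subunit of polymerase alpha, by -0.39. After rescaling, the changes of Pola1 and Prim2 were -0.10 and -0.04, neither called without the block; with it Pola1 was called lower (limma adjusted p = 0.0487) and Prim2 was not.

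Clamp, clamp loader and joining genes all fell, 8 of 8, with 5 of 8 called after rescaling, and Rfc4 (limma adjusted p = 0.00334) and Rfc5 (limma adjusted p = 0.00488) as well when the block was added. Rfc1 (chromosome 5, 65261850 to 65335670, minus strand), the large subunit of the loader, measured 69.7 and 66.2 CPM in WT with LPS, against 166 and 151 CPM in untreated WT, a fall of 1.21 (SE 0.0712, limma adjusted p = 4.55e-07). The small subunits of the same loader fell less, Rfc3 by 0.83, Rfc2 by 0.79, Rfc4 by 0.54 and Rfc5 by 0.45. Pcna, the clamp, was at 443 and 382 CPM with LPS, against 540 and 550 CPM untreated, a change of -0.40 on the CPM scale and -0.12 after rescaling, where it was not called. Fen1, the flap nuclease, fell by 0.96 and the ligase Lig1 by 0.65. The exons of Fen1 share 84.1% of their bases with other genes, the largest part with Gm10143, which leaves its value uncertain.

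In the remaining roles, Rpa2 (chromosome 4, 132768332 to 132778752, plus strand), a subunit of the single-strand binding protein RPA, measured 37.4 and 37.7 CPM in WT with LPS, against 88.8 and 85.1 CPM in untreated WT, a fall of 1.19 (SE 0.0538, limma adjusted p = 8.73e-08). Rpa1 fell by 0.80. Of the deoxynucleotide genes, Tk1 (thymidine kinase 1, which salvages thymidine; chromosome 11, 117815526 to 117826092, minus strand) was at 65.1 and 61.6 CPM with LPS, against 229 and 231 CPM untreated, a fall of 1.84 (SE 0.0553, limma adjusted p = 6.9e-09). De novo synthesis genes changed less: the ribonucleotide reductase subunits Rrm2 by -0.69 and Rrm1 by -0.46, and the thymidylate synthase Tyms by -0.34. After rescaling Rrm2 was called without the block, Rrm1 with the block alone (limma adjusted p = 0.00208), and Tyms in neither fit.

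Chromatin genes fell on both scales, 4 of 4. Uhrf1 (chromosome 17, 56303321 to 56323486, plus strand), which carries DNA methylation over to the new strand, measured 149 and 150 CPM in WT with LPS, against 328 and 339 CPM in untreated WT, a fall of 1.15 (SE 0.123, limma adjusted p = 2.23e-05). Chaf1a, a histone chaperone subunit, was at 60.9 and 67.3 CPM with LPS, against 138 and 147 CPM untreated, a fall of 1.14 (SE 0.121, limma adjusted p = 2.18e-05). Its partner Chaf1b fell by 1.00 and the histone mRNA binding protein Slbp by 0.76. The exons of Chaf1a share 33.6% of their bases with other genes, the largest part with Ubxn6. Those of Orc2 share 24% with other genes, the largest part with Nif3l1, so both values are uncertain.

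**Figure D3:**
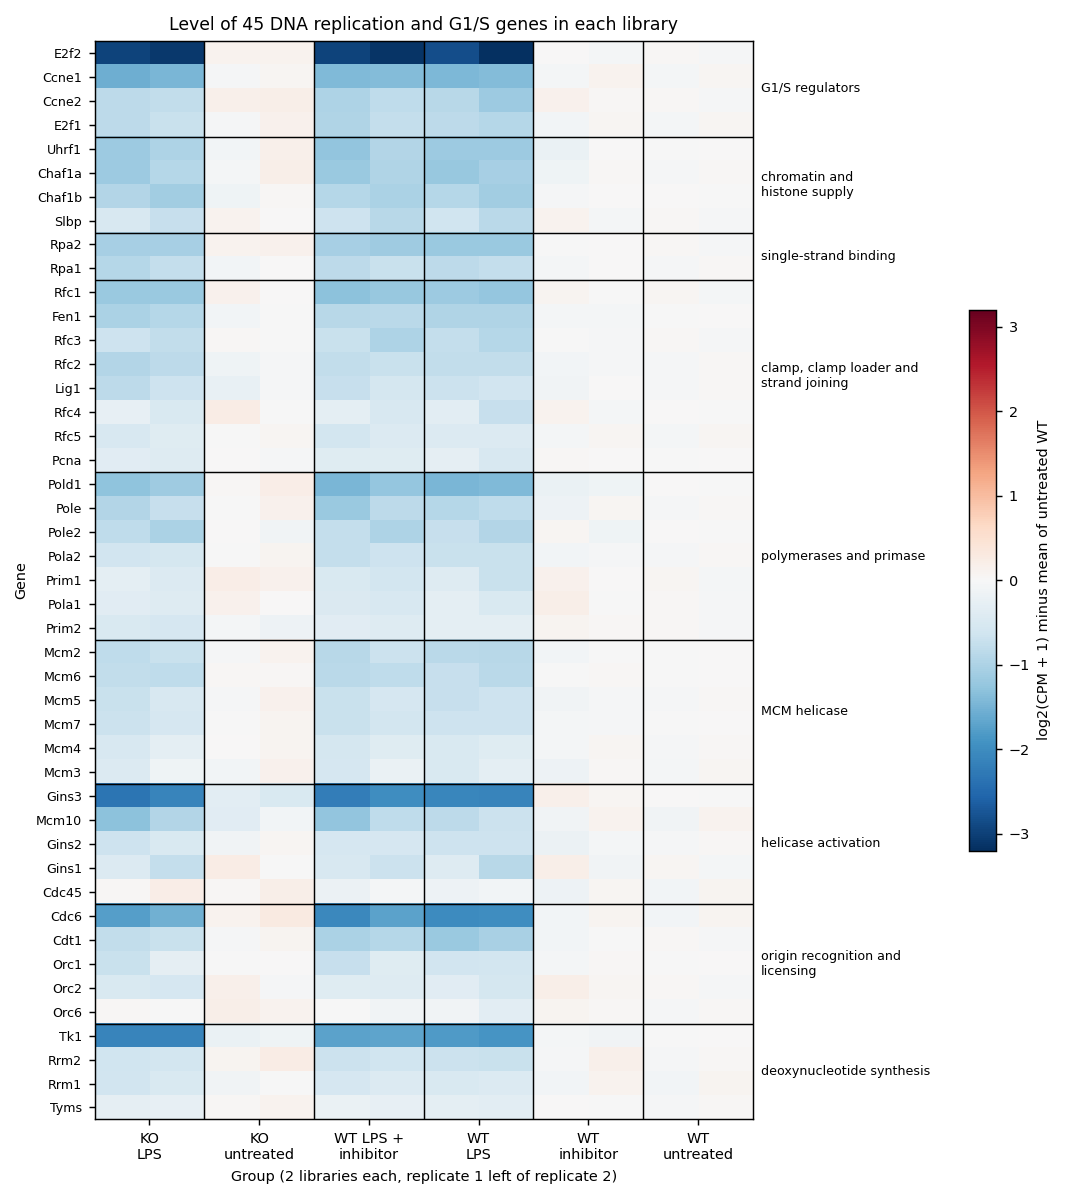
Level of each of the 45 genes (rows, by role) in each of the 12 libraries (columns, replicate 1 left of replicate 2), as log2(CPM + 1) minus the mean of untreated WT; blue is lower and red higher. The 3 groups with LPS are blue in nearly every row, deepest for E2f2, Gins3, Cdc6 and Tk1, while Cdc45 and Orc6 stay near white in all groups.

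The next question was whether KO cells differed in this response. In KO cells 42 of the 45 genes fell with LPS and 0 rose, while 52.7% of all tested genes fell and 13.9% rose. The median log2 change of the 45 was -0.78, against -0.29 over all tested genes. After rescaling, 34 fell and 1 rose, against 33.1% and 26.7% of all tested genes, with a median of -0.50, and with the block on that scale 40 fell and 1 rose, against 40.4% and 35.3%. The genes that the block added there were Mcm4, Orc1, Rfc4, Pola1, Prim2 and Rrm1 (limma adjusted p of 0.000283 to 0.0286). For 44 members both libraries with LPS lay below both untreated ones, against 62.8% of all tested genes. The 42 genes that fell in KO had also fallen in WT. The change of the 45 genes in KO correlated with that in WT at r = 0.983 (Spearman 0.968, across genes, 4 libraries in each contrast and none shared), and over all tested genes r was 0.970. The difference of 1 response minus the other was at most 0.34 for any member, with a median size of 0.06.

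E2f2 led in KO cells too, with 6.73 and 6.13 CPM in KO with LPS, against 64.5 and 64.2 CPM in untreated KO, a change of -3.14 (SE 0.113, limma adjusted p = 2.23e-08). Tk1 measured 52.8 and 52.8 CPM with LPS, against 197 and 209 CPM untreated, a change of -1.92 (SE 0.0553, limma adjusted p = 5.9e-09). Cdc6 was at 14.7 and 17.3 CPM with LPS, against 55.8 and 63.7 CPM untreated, a change of -1.84 (SE 0.133, limma adjusted p = 1.59e-06). For all 3 genes the libraries with LPS lay far below the untreated ones. Gins3 was at 10.1 and 12.03 CPM with LPS, against 43.2 and 39.3 CPM untreated, a change of -1.81 (SE 0.0998, limma adjusted p = 2.93e-07). Ccne1 measured 16.1 and 17.3 CPM with LPS, against 48.3 and 52.4 CPM untreated, a change of -1.54. Pold1 measured 53.98 and 60.04 CPM with LPS, against 137 and 154 CPM untreated, a change of -1.33. These 6 genes, with Rfc1 (-1.26), Rpa2 (-1.18), Uhrf1 (-1.11) and Chaf1a (-1.09), were the 10 largest changes in KO and also the 10 largest in WT.

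Cdc45 measured 56.6 and 64.3 CPM in KO with LPS, against 56.0 and 62.6 CPM in untreated KO, a change of 0.03 (SE 0.108, limma adjusted p = 0.836). After rescaling it was higher with LPS, by 0.30 (limma adjusted p = 0.0464), and it was the 1 member that rose on that scale. Orc6 was at 55.4 and 53.2 CPM with LPS, against 62.0 and 58.7 CPM untreated (change -0.15, limma adjusted p = 0.136, or 0.0373 with the block; 0.12 after rescaling, adjusted p = 0.207). Mcm3 was the third gene not called, with -0.30 (limma adjusted p = 0.088, or 4.13e-05 with the block); after rescaling it was at -0.02 and not called in either fit. Orc2, which was not called after rescaling in WT, fell on both scales in KO, with -0.58 and -0.31, as did Gins1 and Rfc5. With the block all 3 were called lower after rescaling in WT too.

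**Figure D4:**
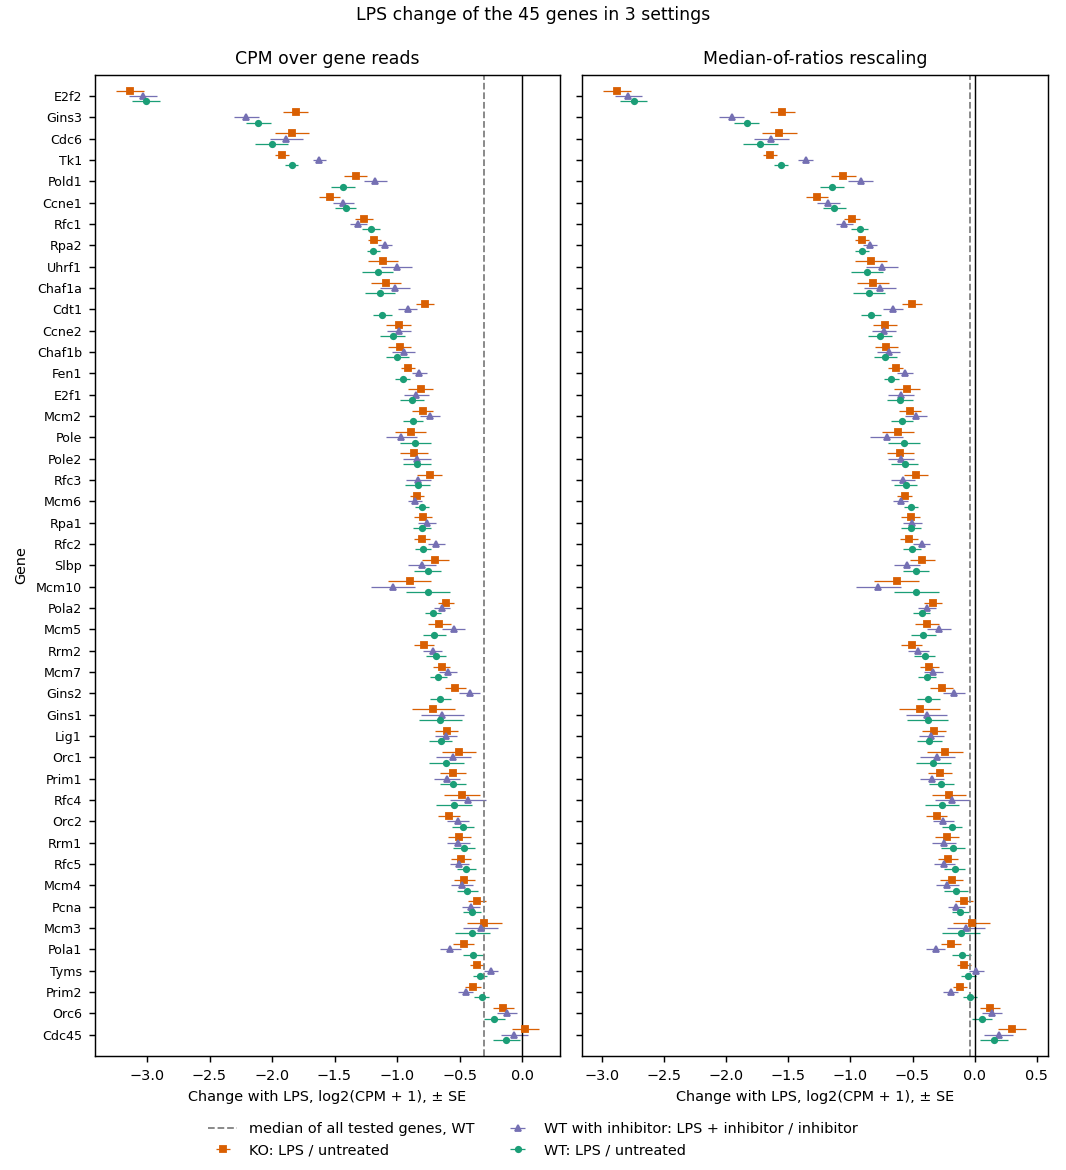
LPS change of each of the 45 genes with its standard error, on the log2(CPM + 1) scale, on CPM over gene reads (left) and after median-of-ratios rescaling (right), for KO cells (orange squares), WT cells with the inhibitor (purple triangles) and WT cells (green circles); the dashed line is the median of all tested genes in WT. The 3 settings run in nearly the same order, led by E2f2 at -3.14, -3.03 and -3.01 on the CPM scale, and Cdt1 shows the widest gap between KO and WT.

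The interaction of genotype and LPS tests the difference of the responses directly. None of the 45 genes passed it (0 higher, 0 lower by limma; 1 with an unadjusted p under 0.05; 0 by edgeR and 0 by DESeq2), and 0.128% and 0.284% of all tested genes passed it upwards and downwards. Cdt1 had the largest value, 0.34 (SE 0.106, limma adjusted p = 0.4), as its change was -0.78 in KO and -1.12 in WT. With the replicate number as a block, Cdt1 passed (limma adjusted p = 0.0193), against 1.67% of all tested genes higher and 2.12% lower under that fit, or 1.5% and 2.19% with rescaling as well. For Gins3 the interaction was 0.30 with a 95% interval from -0.02 to 0.62. The intervals of all 45 genes lay within 1 log2 unit of 0, and those of 37 within 0.5.

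Genotype differences without LPS were small. Of the 45 genes, 1 fell and 0 rose in untreated KO against untreated WT, while 5.37% of all tested genes fell and 4.31% rose. That gene was Gins3, with 43.2 and 39.3 CPM in untreated KO, against 55.9 and 54.5 CPM in untreated WT, a difference of -0.41 (SE 0.0998, limma adjusted p = 0.0293). The groups did not overlap, but neither did they for 26.6% of all tested genes with KO lower and 21.4% with KO higher. The call of Gins3 was lost when any of the 4 libraries was left out. With the replicate block, 4 genes fell and 2 rose, against 13.7% and 10.9% of all tested genes; with rescaling as well, 3 fell and 4 rose, against 12.7% and 11.7%. The 3 further genes that fell were Mcm10 (-0.22, limma adjusted p = 0.0197), Tk1 (-0.18, limma adjusted p = 0.00936) and Lig1 (-0.14, limma adjusted p = 0.0331), and Rrm2 (0.17, limma adjusted p = 0.0197) and Prim1 (0.17, limma adjusted p = 0.0371) rose. With rescaling as well, Cdc6 (0.21, limma adjusted p = 0.0401) and Rpa2 (0.14, limma adjusted p = 0.0398) joined the higher genes and Lig1 was not called (limma adjusted p = 0.0527). After median-of-ratios rescaling the counts were the same, 1 lower and 0 higher, against 4.75% and 4.38% of all tested genes. The median difference of the 45 genes on the CPM scale was 0.04, against -0.01 over all tested genes, and all 45 intervals lay within 1 log2 unit of 0.

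After LPS, 1 gene was higher and 1 lower in KO than in WT, against 6.19% and 7.66% of all tested genes. Cdt1 measured 67.8 and 71.2 CPM in KO with LPS, against 50.9 and 56.7 CPM in WT with LPS, a difference of 0.37 (SE 0.075, limma adjusted p = 0.0101). Tk1 measured 52.8 and 52.8 CPM in KO with LPS, against 65.1 and 61.6 CPM in WT with LPS, a difference of -0.26 (SE 0.0553, limma adjusted p = 0.0123). For both genes the groups stood apart without overlap, as they did for 23.8% of all tested genes with KO higher and 25.6% with KO lower. After rescaling the counts were again 1 higher and 1 lower, against 6.4% and 7.74% of all tested genes. Neither call held in a fit of these 4 libraries alone (0 higher, 0 lower); the call of Cdt1 was lost without KO with LPS replicate 2 or WT with LPS replicate 1, and that of Tk1 without either KO with LPS library or without WT with LPS replicate 1, where Orc6 (0.34) was called in place of Cdt1.

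With the replicate block, 8 genes were higher and 3 lower in KO after LPS, against 14.9% and 16.7% of all tested genes, and with rescaling as well 8 and 3, against 15.4% and 16.9%. Cdt1 and Tk1 were among them. Cdc6 was at 14.7 and 17.3 CPM in KO with LPS, against 12.1 and 12.3 CPM in WT with LPS, a difference of 0.36 (blocked limma adjusted p = 0.00118; 0.118 without the block). Cdc45 was at 56.6 and 64.3 CPM in KO with LPS, against 48.8 and 51.6 CPM in WT with LPS, a difference of 0.26 (blocked limma adjusted p = 0.000972; 0.16 without the block). Orc6 (0.23), Pold1 (0.22), Prim1 (0.17), Rpa2 (0.14) and Pola2 (0.13) were the other 5 higher genes (blocked limma adjusted p of 0.00934 to 0.0467). Mcm10 was at 34.95 and 45.46 CPM in KO with LPS, against 48.9 and 54.5 CPM in WT with LPS, a difference of -0.36 (blocked limma adjusted p = 0.000406; 0.231 without the block), and Prim2 (-0.19, blocked limma adjusted p = 0.00714) was the other lower one. As shares of the 45 genes, these counts were not far above the share of all tested genes for higher genes and below it for lower ones.

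**Figure D5:**
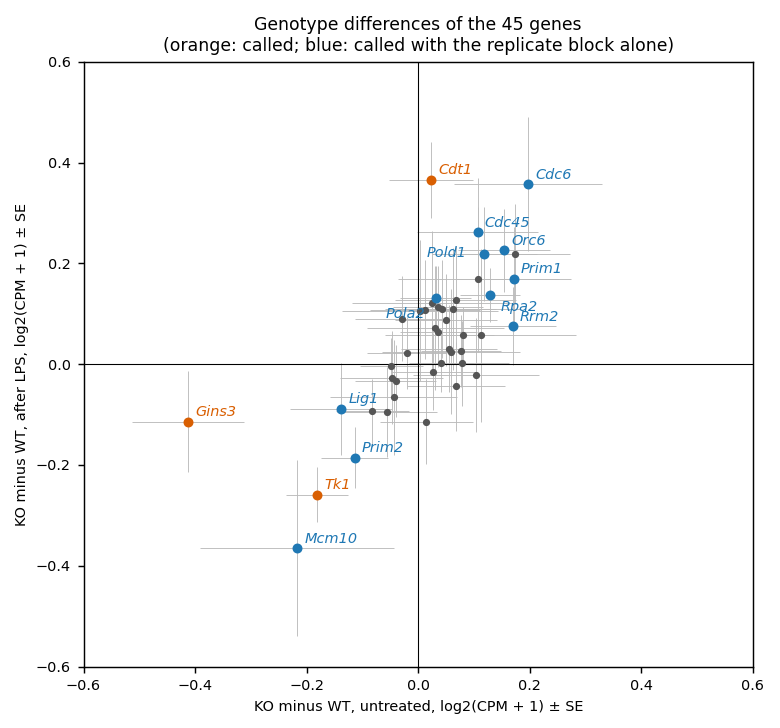
Difference of KO minus WT of each of the 45 genes without LPS (horizontal) and after LPS (vertical), on the log2(CPM + 1) scale with standard errors; orange genes were called in either contrast, blue ones with the replicate block alone. Most genes lie within 0.2 of 0 on both axes, Cdt1 is at 0.37 after LPS and 0.02 without it, and Gins3 is at -0.41 without LPS and -0.11 after it.

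The genotype differences without and with LPS, which share no library, correlated at r = 0.719 across the 45 genes, against r = 0.797 across all tested genes. In 39 of the 45 genes the sign was the same, 28 positive and 11 negative, against 73.5% of all tested genes. The means of Tk1, Mcm10, Lig1 and Prim2 were lower in KO in both settings, and those of Cdc6, Rrm2, Prim1 and Orc6 higher in both.

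Between the inhibitor alone and untreated WT none of the 45 was called (0 higher, 0 lower by limma, edgeR and DESeq2; 0 with an unadjusted p under 0.05), and 0% of all tested genes were called in either direction. The differences ran from -0.17 to 0.12 on the log2 scale, and the 95% intervals of all 45 lay within 0.5 of 0.

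LPS given with the inhibitor lowered 42 of the 45 genes and raised 0, compared with the inhibitor alone, while 50.8% of all tested genes fell and 13.5% rose. Their median change was -0.73, against -0.27 over all tested genes. After rescaling 35 fell and 0 rose, against 32.5% and 26.4% of all tested genes, with a median of -0.47, and with the block on that scale 41 fell and 1 rose, against 39.8% and 35.2%. The block added Mcm4, Gins1, Gins2, Orc1, Pcna and Rfc4 there (limma adjusted p of 0.000304 to 0.0289), and Cdc45 was the gene that rose (0.19, limma adjusted p = 0.00316). On the CPM scale Mcm3 was called with the block alone (-0.33, limma adjusted p = 1.67e-05, against 0.0661 without it). Both libraries with LPS lay below both without it for 44 members, against 60.2% of all tested genes. E2f2 was at 6.78 and 5.87 CPM in WT with LPS and inhibitor, against 60.2 and 57.3 CPM in WT with inhibitor, a change of -3.03 (SE 0.113, limma adjusted p = 2.59e-08). Gins3 was at 11.1 and 13.1 CPM with both, against 61.5 and 57.3 CPM with the inhibitor, a change of -2.21, and Cdc6 was at 11.6 and 15.1 CPM with both, against 48.8 and 54.9 CPM with the inhibitor, a change of -1.89. Tk1 was at 69.0 and 70.4 CPM with both, against 220 and 213 CPM with the inhibitor, a change of -1.62. The LPS change with the inhibitor differed most from that without it for Mcm10, where the difference was -0.28 on the log2 scale. Ccne1 (-1.43), Rfc1 (-1.31), Pold1 (-1.17), Rpa2 (-1.10), Mcm10 (-1.03) and Chaf1a (-1.02) completed the 10 largest changes. Cdc45, at 48.4 and 52.9 CPM with both, against 48.7 and 57.7 CPM with the inhibitor, and Orc6, at 53.8 and 50.3 CPM with both, against 57.7 and 55.6 CPM with the inhibitor, were again nearest to 0.

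Set directly against LPS alone, LPS with the inhibitor gave 0 higher and 0 lower genes by limma, 1 with an unadjusted p under 0.05, while 0.0734% of all tested genes were higher and 1.04% lower. The differences ran from -0.28 to 0.17, and the intervals of 44 of the 45 genes lay within 0.5 log2 units of 0. Tk1 had the unadjusted p under 0.05, at 69.0 and 70.4 CPM with LPS and inhibitor, against 65.1 and 61.6 CPM with LPS, a difference of 0.14 (SE 0.0553, limma adjusted p = 0.635). Mcm10, at 36.1 and 49.4 CPM with both, against 48.9 and 54.5 CPM with LPS, differed by -0.28 (limma adjusted p = 0.858) and was called with the replicate block (limma adjusted p = 0.0195), where 2.41% of all tested genes were lower and 1.68% higher (2.98% and 1.05% with rescaling as well). The interaction of the inhibitor with LPS called none of the 45 genes (0 higher, 0 lower by limma; 1 with an unadjusted p under 0.05), against 0.0184% and 0.569% of all tested genes. Across the 45 genes the LPS change with the inhibitor correlated with that without it at r = 0.979, against 0.967 over all tested genes, with no library shared.

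In all 3 LPS settings, 42 of the 45 genes fell on the CPM scale and 30 after rescaling. Under the CPM scale, the rescaling, the blocked fit with rescaling, edgeR and DESeq2 together, 29 genes fell in every setting. The share of all tested genes that fell in all 3 settings at once was not computed, so these counts have no matching background. In single settings, edgeR called 32.1% of all tested genes lower in KO, 30.6% with the inhibitor and 31.4% in WT. DESeq2 called 30%, 29.1% and 29.6% in the same order. The 29 genes were Mcm2, Mcm5, Mcm6, Mcm7, Mcm10, Cdc6, Cdt1, Gins3, Rfc1, Rfc2, Rfc3, Pola2, Pole, Pole2, Pold1, Rpa1, Rpa2, Rrm2, Tk1, Fen1, Lig1, E2f1, E2f2, Ccne1, Ccne2, Chaf1a, Chaf1b, Uhrf1 and Slbp. The summed level of the 45 genes was 4066 and 4343 CPM in KO with LPS, 4001 and 4312 CPM in WT with LPS and inhibitor and 4116 and 4072 CPM in WT with LPS. Without LPS the sums were 6716 and 7140 CPM in KO, 6618 and 6912 CPM in WT with inhibitor and 6741 and 6954 CPM in untreated WT.

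For members with an E2F word in the promoter window the median LPS change was -0.78 in KO and -0.83 in WT (15 genes), against -0.78 in KO and -0.75 in WT for the 23 members with a promoter and no such word; the difference was not tested. Tk1, whose window holds none of the 4 words, fell by 1.84 in WT, while Mcm3 and Pola1, whose windows hold at least 1, changed by -0.40 and -0.39.

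Other lists of cell cycle genes had median changes below that of all tested genes in both genotypes. In WT the medians were -0.69 for further replication factors, -0.54 for nucleotide supply, -0.63 for mitosis and G2/M, -0.79 for G1 cyclins, kinases and inhibitors and -0.92 for E2F and pocket proteins, against -0.30 over all tested genes. The counts below stand against shares of all tested genes of 52.7% lower and 13.9% higher in KO and 53.6% and 13.7% in WT on the CPM scale, and of 33.1% and 26.7% in KO and 32.5% and 26.4% in WT after rescaling. Of 27 further replication fork and origin factors, 23 fell in KO and 22 in WT, and 0 rose in either; after rescaling 15 fell in KO and 15 in WT, with 1 and 2 higher. Wdhd1, an adaptor of the fork, was at 25.1 and 27.4 CPM in KO with LPS, against 110 and 115 CPM in untreated KO, and its change was -2.06 in KO and -1.99 in WT. Gmnn, the inhibitor of Cdt1, changed by -1.94 in KO and -1.63 in WT, and the nuclease Dna2 by -1.49 in KO and -1.47 in WT. Of 13 further nucleotide supply genes, 10 fell in each genotype on the CPM scale, and 7 in KO and 4 in WT after rescaling, when 1 and 3 were higher; in WT the shares of this list after rescaling were near those of all tested genes. With the block and rescaling 10 of them fell in KO and 9 in WT, and 3 were higher in each, against 40.4% lower and 35.3% higher of all tested genes in KO and 40.2% and 35% in WT. The deaminase Dctd led, with -1.06 in KO and -1.08 in WT. Of 20 genes of mitosis and G2/M, 19 fell in each genotype, and 16 in KO and 14 in WT after rescaling; Cenpf, a kinetochore protein, changed by -1.41 in KO and -1.44 in WT.

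Of the G1 cyclins, kinases and inhibitors, 16 were listed and 13 tested, of which 3 rose and 9 fell in each genotype, and 3 rose and 7 fell after rescaling. The share that rose after rescaling was below the 26.7% of all tested genes in KO and the 26.4% in WT. Cdkn1a, which codes for the inhibitor p21, was at 460 and 515 CPM in KO with LPS, against 117 and 165 CPM in untreated KO, and at 459 and 507 CPM in WT with LPS, against 136 and 170 CPM in untreated WT. Its change was 1.80 in KO and 1.66 in WT. Cdk6, a G1 kinase, rose by 1.48 in KO and 1.59 in WT, and Ccnd2, cyclin D2, by 1.15 in KO and 1.00 in WT, while staying under 2 CPM. Ccnd2 was at 1.14 to 1.92 CPM in libraries with LPS and at 0.0515 to 0.261 CPM in those without. It thus passed the filter only through the groups where it was high, so its rise was selected for and carries no weight in the count of 3. Other inhibitor genes of the same list fell: the change of Cdkn2d was -2.17 in KO and -1.93 in WT, that of Cdkn2c -1.64 in KO and -1.39 in WT, and that of Cdkn1b -1.73 in KO and -1.33 in WT. Of 11 further E2F and retinoblastoma family genes, 9 fell and 0 rose in each genotype, and after rescaling 7 fell in each, with 0 higher in KO and 1 in WT. Against the 33.1% of all tested genes in KO and the 32.5% in WT, the share that fell after rescaling was the larger one. With the block and rescaling 9 fell and 2 were higher in each genotype. Rbl2, the pocket protein p130, changed by -2.06 in KO and -1.86 in WT. Tfdp2, a dimer partner of E2F, changed by -1.33 in KO and -1.23 in WT, and the repressor E2f6 by -1.09 in KO and -1.11 in WT.

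Between genotypes without LPS, 1 of the 27 replication factors and 1 of the 11 E2F and pocket protein genes were higher in KO and no gene of these lists was lower, against 4.31% and 5.37% of all tested genes. After LPS, 1 of the 27 and 1 of the 11 were higher, and 1 of the 13 nucleotide genes and 1 of the 11 lower, against 6.19% and 7.66%. E2f6 was at 67.8 and 67.5 CPM in untreated KO, against 50.02 and 48.03 CPM in untreated WT, and at 31.2 and 31.5 CPM in KO with LPS, against 22.4 and 21.9 CPM in WT with LPS. It was higher in KO by 0.46 without LPS (SE 0.0601, limma adjusted p = 0.00122) and by 0.48 after it (SE 0.0601, limma adjusted p = 0.000679). Tipin, a fork protection factor, was higher in KO by 0.47 without LPS and 0.37 after it. After LPS, the deoxycytidine kinase Dck was lower by 0.33 in KO (limma adjusted p = 0.00812) and Rbl2 by 0.26 (limma adjusted p = 0.0253). None of the 20 mitosis genes and none of the 13 G1 genes was called between the genotypes by limma without the block. With it, 3 G1 genes were higher in KO without LPS, against 10.9% of all tested genes, and after LPS 2 were higher and 1 lower, with 1 mitosis gene higher and 1 lower, against 14.9% and 16.7%. Dck was also lower in WT with LPS and inhibitor, at 54.1 and 59.5 CPM, than in WT with LPS, at 73.9 and 74.8 CPM (change -0.38, limma adjusted p = 0.0186).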

How the data were processed

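RNA sequencing of 12 libraries in 6 groups was analysed. The deposited table holds CPM, which the authors made per library from read counts over all counted alignments; per the submitters' processing notes the tools were TopHat2 2.1.0, HTSeq and edgeR on builds named mm10 and GRCm38. The labels matched 12 columns; 4 further per-sample columns matched none and were not used. In every library 100% of the values gave whole reads within 0.02 reads. The 5 summary lines held 28.6 to 34.9% not uniquely aligned, 5.00 to 6.37% without a feature and 0.994 to 1.13% ambiguous alignments of 57.1 M to 74.2 M, so CPM were rescaled to the 35.9 M to 45.7 M gene reads. No source used here gives the strand setting or the annotation of the counting.

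The test was limma-trend (limma 3.58.1, R 4.3.3) of log2(CPM + 1), for genes that reached 1 CPM in 2 or more libraries. A mean was fitted for each of the 6 groups, with 6 residual and 3.54 prior degrees of freedom, and genes were called at a Benjamini-Hochberg adjusted p under 0.05 in each of 9 comparisons. A fold change on this scale understates the change of low genes. Alternatives were median-of-ratios rescaling (from genes that reach 5 CPM in every library), the deposited scaling, 0.25 as pseudocount, a filter of 5 CPM, no filter, a replicate block, only the groups compared, edgeR 4.0.16 (quasi-likelihood) and DESeq2 1.42.0 on the recovered reads, and each library left out. Any 2 groups had correlated differences between replicates 1 and 2 (15 pairs, r of 0.468 to 0.737, or 0.587 to 0.901 over the 45 genes), so the numbers were taken to pair the samples, although the labels name no shared day or culture; for the 45 genes, blocked values or their range are printed where the block changes a call. The fit was also run on simulated data with few changed genes, no general shift and no pairing of replicates. That run cannot speak to the choice of scaling or of the block.

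The 45 genes, the other lists and the tests were chosen with earlier results of these data known. Values per library are given for up to 10 called members with the largest change in each comparison and, with LPS, the members nearest to 0; further members, those called only with the block among them, were named after their values were seen. Of the other lists, up to 3 called genes in each direction were named. Orc3, Orc4, Orc5 and Gins4 were named besides, after their values were seen. Positions are from GENCODE M21 (GRCm38), and the 14 chromosomes of the 45 genes were read from it; promoters are from RefSeq.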

Additional observations from a re-analysis of the deposited data

How the results depend on the processing

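In the 3 LPS comparisons the median change of the 45 genes kept its sign under every alternative run. Under the median of ratios, with or without the replicate block, it was -0.501 in KO, -0.474 with the inhibitor and -0.471 in WT. By edgeR it was -0.492, -0.447 and -0.457, and by DESeq2 -0.468, -0.429 and -0.431, in the same order. The all-gene median of these comparisons is nearer to 0 on those scales by construction. The number of members higher was 1 in KO under the median of ratios, with and without the block, by edgeR and by DESeq2, and 1 in WT and 1 with the inhibitor under the block with the median of ratios. With single libraries left out the median ran from -0.805 to -0.727 in KO and from -0.749 to -0.699 with the inhibitor.

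Single genes near 0 changed sign. Cdc45 was at 0.155, 0.177 and 0.202 in WT and at 0.193, 0.218 and 0.236 with the inhibitor under the median of ratios (with and without block), edgeR and DESeq2. Orc6 was at 0.124, 0.141 and 0.166 in KO, at 0.136, 0.165 and 0.183 with the inhibitor and at 0.062, 0.0893 and 0.115 in WT under the same settings. Tyms was at 0.0127, 0.0388 and 0.0567 with the inhibitor. By DESeq2, Mcm3 was at 0.0188 in KO and Prim2 at 0.00838 in WT. Without single libraries Cdc45 ran from -0.0636 to 0.118 in KO and from -0.184 to 0.0563 with the inhibitor. The cause was not tested.

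Between genotypes, the replicate block gave 2 higher and 4 lower without LPS (4 and 3 with the median of ratios) and 8 higher and 3 lower after LPS (8 and 3), 1 higher in the interaction (1) and 1 lower for LPS with inhibitor against LPS (1); it changed no other count of members by over 1.5 times. Under the deposited scaling 2 members were lower without LPS, with a median of -0.0529, and 2 after LPS; DESeq2 gave 2 lower after LPS, and the fit of only the groups compared 0 higher and 0 lower after LPS. Whichever library was left out, 0 members were lower without LPS, with a median of -0.0114 to 0.0681, and after LPS 0 to 1 were higher and 0 to 1 lower. The median of the interaction ran from -0.0355 to 0.0418, and that of the inhibitor against untreated from -0.0554 to 0.0087. With 2 libraries a group, each leave-out assumes that the lone library varies like the other groups. In the fit without the block, differences between 2 groups under about 0.2 log2 units, the median 95% half-width, cannot be resolved for most members.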

Other observations

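Replicate numbers went with small shifts of these genes in the same direction across groups. Of the 45 genes, 17 were higher in replicate 2 than in replicate 1 in all 6 groups, 10 were higher in replicate 1 in all 6, and 18 were mixed, against 19.6% and 22.5% of all tested genes for the uniform directions. Mcm3, Mcm4, Mcm5, Mcm7, Mcm10, Pole and Rpa1 were among the 17, and Pola1, Prim1, Pole2 and Slbp among the 10. For Mcm3 the difference of replicate 1 minus 2 ran from -0.32 to -0.14 on the log2 scale, and for Slbp from 0.09 to 0.22. The members lie on 14 chromosomes, and chromosome 5 held the most, 8.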
